A study of Homo sapiens with 6 samples.

Results

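The 10 genes described here encode dual-specificity phosphatases that switch off MAP kinases (DUSP1, DUSP2, DUSP4, DUSP5, DUSP6, DUSP8, DUSP10 and DUSP16) and inhibitors of the Sprouty and Spred families (SPRY1 and SPRED2). They were taken by symbol from a count table of 65746 genes. That rule used no measured value, but the genes were chosen with earlier results of these data known. The cells were wild-type SU-DHL-8, an established line of human diffuse large B-cell lymphoma. One group, called ST below, received beta-sitosterol, a sterol of plants, at 15 µM for 24 h. The control group received DMSO, the solvent, at an equal concentration for 24 h. Each group had 3 libraries, which the labels number as replicates without saying whether they came from separate cultures, so p-values measure only the spread between these libraries, which may be technical.

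MAP kinases (ERK, JNK and p38) carry signals from receptors and stress sensors to the nucleus and are active when a threonine and a tyrosine in the same loop are both phosphorylated. MAP kinase phosphatases remove both phosphates, and several of their genes are themselves transcribed in response to MAP kinase activity, which makes them a negative feedback. Sprouty and Spred proteins act further upstream, where they restrain the activation of RAF by RAS. In B cells these kinases lie downstream of the B cell receptor and of other surface receptors.

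Total counts ran from 26453101 to 35565163 per library. DMSO replicate 2 stood apart, with a correlation of log2 CPM across genes of 0.982 and 0.972 with the other DMSO libraries, against 0.991 between those and 0.994 within ST, so values without it are given beside the results of DUSP1, DUSP2, DUSP4, DUSP6 and SPRED2. The labelled cell type was matched by its markers, since all 9 B cell markers reached at least 10 CPM in some library, MS4A1 in ST alone. Of these markers MS4A1 and CD79A rose with beta-sitosterol, by 2.23 and 1.05 on the log2 scale, and PAX5 and EBF1 fell, by 1.67 and 2.07 (edgeR adjusted p = 1.11e-04, 5.35e-04, 8.07e-05 and 3.31e-04); whether they bear on the results below was not tested. Of 8 T cell markers 7 stayed under 1 CPM in every library, as did 5 of 8 myeloid and 8 of 8 stromal or epithelial markers, and CD3E, CD3G, CD2, S100A8 and S100A9 were listed at 0. The summed level of the T cell list was 1.76 to 2.16 CPM in DMSO and 1.39 to 1.70 CPM in ST, that of the myeloid list 5.87 to 8.57 and 6.96 to 9.27 CPM, and that of the stromal or epithelial list 0.231 to 0.251 and 0.795 to 2.04 CPM; its part in the results below was not tested. In bulk RNA, fewer cells of a kind and less RNA per cell cannot be told apart.

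Of the 10 genes, 8 had enough counts to be tested. DUSP5 and DUSP1, which encode inducible nuclear phosphatases, rose with beta-sitosterol by 6.18-fold and 2.21-fold, and SPRED2, an inhibitor of RAS to RAF signalling, fell by 0.75 on the log2 scale (edgeR adjusted p = 4.31e-04, 0.0019 and 0.012). DUSP6, the ERK phosphatase gene of the cytoplasm, and the lymphoid phosphatase gene DUSP2 did not pass, although their ST values lay outside the DMSO range. DUSP4, DUSP10 and DUSP16 had overlapping groups. Thus 3 of 8 tested genes passed, or 37.5%, against 40.8% of all 11525 tested genes (adjusted p below 0.05 in edgeR's quasi-likelihood test, either direction). By direction, 2 were higher, where 19.0% of all tested genes were, and 1 was lower, where 21.8% were. The groups did not overlap for 5 of 8, or 62.5%, against 56.1% of all tested genes. Both shares were near the background, so the count is no result about the family, and the description below is of single genes.

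Promoter windows of 300 bases ran from 250 before to 50 after the annotated start in RefSeq (GRCh38.p14). They were used for 8 of the 10 genes, 11 windows in all. No window of DUSP4 or DUSP5 was searched, so nothing is said here of their motifs. Searched on both strands were the cyclic AMP response element (CRE), TGACGTCA, and its shorter core TGACG, which every complete CRE contains. The other motifs were the AP-1 site with the letters TGANTCA, the ETS site read as CCGGAA, the SP1 site read as GGGCGG, the E-box read as CACGTG and the TATA box read as TATAAA. The CArG box and the NF-kB site were searched too. Shown are DUSP1, which rose, SPRED2, which fell, at its downstream start, and DUSP8, which had no counts and holds the same element as DUSP1. Capitals mark TGACG and its complement CGTCA, within TGACGTCA where complete, TGANTCA and TATAAA.
DUSP1, chr5:172771146-172771445, minus strand: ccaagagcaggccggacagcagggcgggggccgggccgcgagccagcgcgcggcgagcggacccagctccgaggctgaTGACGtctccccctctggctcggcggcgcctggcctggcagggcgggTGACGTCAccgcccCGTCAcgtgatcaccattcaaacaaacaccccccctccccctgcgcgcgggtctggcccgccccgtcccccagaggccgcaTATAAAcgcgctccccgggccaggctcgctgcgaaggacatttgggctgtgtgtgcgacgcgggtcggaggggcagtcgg
DUSP8, chr11:1572222-1572521, minus strand: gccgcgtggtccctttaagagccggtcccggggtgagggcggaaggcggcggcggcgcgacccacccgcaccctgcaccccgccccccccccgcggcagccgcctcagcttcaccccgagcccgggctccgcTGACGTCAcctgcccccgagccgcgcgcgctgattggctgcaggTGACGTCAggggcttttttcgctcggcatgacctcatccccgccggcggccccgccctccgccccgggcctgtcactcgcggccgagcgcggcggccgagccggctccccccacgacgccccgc
SPRED2, chr2:65366729-65367028, minus strand: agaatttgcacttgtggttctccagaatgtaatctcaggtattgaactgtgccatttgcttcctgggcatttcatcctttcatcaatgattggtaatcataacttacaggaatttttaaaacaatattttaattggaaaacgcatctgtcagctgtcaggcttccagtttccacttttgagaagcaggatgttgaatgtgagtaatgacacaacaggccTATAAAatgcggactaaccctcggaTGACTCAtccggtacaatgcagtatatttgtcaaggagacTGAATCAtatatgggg

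With the start base counted as 0, the complete CRE of DUSP1 began at -125 and its TATAAA at -30. DUSP8 had complete CREs at -118 and -74 and no TATAAA in the window. A complete CRE was present in 1.85% of the 35116 windows of the table, TGACG in 24.6%, TGANTCA in 7.71% and TATAAA in 11.5%. In SPRED2 the downstream window held TGANTCA at -6 and 34 and TATAAA at -31, and the upstream window (chr2:65432550-65432849) held neither of these but TGACG or its complement at 30. Counts per gene do not show which SPRED2 start was used. The DUSP6 window (chr12:89352452-89352751) held none of the motifs searched. In GENCODE v29, DUSP6, DUSP8 and DUSP16 start at 89353271, 1571920 and 12562383, outside their windows. The bases around those starts were not searched. The DUSP2 window held GGGCGG (44.95% of windows) and CACGTG (7.26%), as did that of DUSP1, where these are not marked. These matches are letters in a window and say nothing on the binding of a factor.

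The inducible nuclear phosphatases come first. DUSP1 removes phosphates from p38, JNK and ERK and is an early gene of stress and growth factor responses (ENSG00000120129, chromosome 5, 172768090 to 172771195, 4 exons). It stood at 11.6, 10.2 and 16.4 CPM (counts scaled by library size with TMM factors) in DMSO replicates 1 to 3 and at 28.7, 28.0 and 27.8 CPM in ST replicates 1 to 3. All ST values lay above the highest DMSO value, and they were far closer to each other than the DMSO values were. Means were 12.7 ± 3.27 CPM in DMSO and 28.2 ± 0.48 CPM in ST (SD, n = 3 each), and the log2 fold change was 1.15 with an SE of 0.19 (edgeR adjusted p = 0.0019). With any 1 library left out it was called each time, at most 1.41 and, without DMSO replicate 2, 1.004. On the authors' TPM scale the change was 0.89 and missed the threshold (limma adjusted p = 0.073 on log2(TPM + 1)), with 30.6, 17.3 and 43.4 TPM in DMSO and 55.6, 53.3 and 52.3 TPM in ST. The groups did not overlap on that scale either. The listed TPM of DMSO replicate 2 summed to 39.5% of the full TPM total, against 57.0% to 69.2% in the other libraries, and the median of all genes lay at -0.19 on that scale.

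DUSP5 is a nuclear phosphatase with a preference for ERK (ENSG00000138166, chromosome 10, 110497838 to 110511544, 4 exons). Its counts were 16, 12 and 16 in DMSO and 59, 90 and 76 in ST. This is 0.47, 0.38 and 0.46 CPM against 2.003, 3.41 and 2.76 CPM, so that each ST library was over the highest DMSO library, at a low level. From 0.44 ± 0.05 to 2.72 ± 0.70 CPM (SD, n = 3 per group) it had the largest change of the 8 tested genes, a log2 fold change of 2.63 ± 0.30 (SE, with a 95% interval of 1.95 to 3.30 and an edgeR adjusted p = 4.31e-04). It was called under all 15 alternatives, with log2 fold changes from 1.33 on log2(TPM + 1), where the pseudocount shrinks low genes, to 2.81 without ST replicate 1.

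DUSP2, first described in activated lymphocytes, encodes another nuclear phosphatase (ENSG00000158050, chromosome 2, 96143166 to 96145440, 4 exons). Its levels were 7.57, 3.01 and 9.47 CPM in DMSO and 12.3, 10.6 and 11.8 CPM in ST. The ST values lay above all DMSO values, but DMSO replicate 2 was far below its group. The log2 fold change of 0.79 ± 0.35 (SE; 95% interval -0.01 to 1.58) did not pass (edgeR adjusted p = 0.10). Without DMSO replicate 2 the difference was smaller, 0.43, and passed (edgeR adjusted p = 0.024). Without DMSO replicate 3 it was 1.16 and passed as well (edgeR adjusted p = 0.030). DESeq2 also called it (adjusted p = 0.049). Of all tested genes, 6640 of 11724 passed without DMSO replicate 2 and 5142 of 11725 without DMSO replicate 3. With all libraries 4697 of 11525 passed.

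DUSP4 acts on ERK and JNK in the nucleus (ENSG00000120875, chromosome 8, 29333064 to 29350668). It had 18, 36 and 34 counts in DMSO and 42, 26 and 29 in ST. The groups overlapped at 0.88 ± 0.31 and 1.15 ± 0.24 CPM (SD, n = 3 per group). The 95% interval of its log2 fold change ran from -0.38 to 1.18 (edgeR adjusted p = 0.38). The log2 fold change was 0.40 with all libraries, 0.61 without DMSO replicate 2, 0.13 without DMSO replicate 1 and 0.21 without ST replicate 1, and it passed in none of these.

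**Figure D1:**
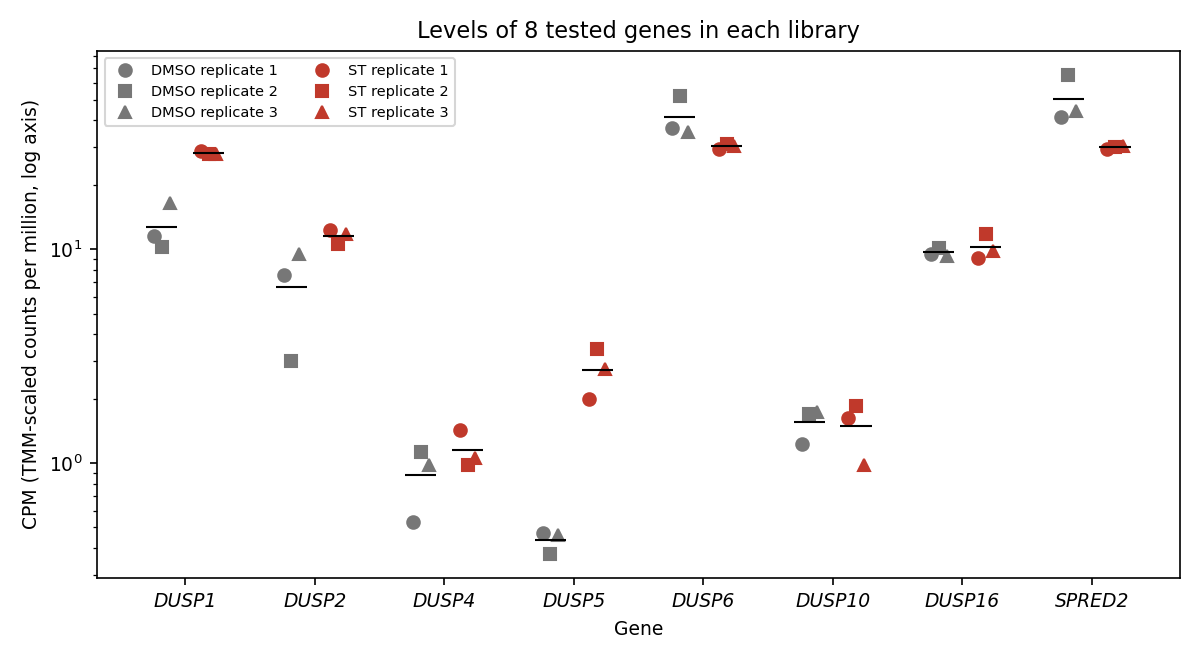
Levels of the 8 tested genes in each library, in CPM on a log axis; grey marks are DMSO, red marks ST, the marker shape is the replicate number and the black line the mean of 3. DUSP1 and DUSP5 sit higher in all ST libraries and SPRED2 lower, while DMSO replicate 2 (grey square) is the highest DMSO value for DUSP6 and SPRED2 and the lowest for DUSP1 and DUSP2.

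DUSP6 is the ERK phosphatase of the cytoplasm and a widely used readout of ERK activity (ENSG00000139318, chromosome 12, 89347232 to 89353271, 3 exons). It stood at 36.8, 52.0 and 35.2 CPM in DMSO and at 29.3, 30.9 and 30.5 CPM in ST. Every ST value was below every DMSO value, and DMSO replicate 2 was the highest. The log2 fold change of -0.45 ± 0.17 (SE; 95% interval -0.83 to -0.07) missed the threshold after adjustment (edgeR adjusted p = 0.059). Without DMSO replicate 2 it was -0.26 (edgeR adjusted p = 0.052). It passed without DMSO replicate 3 (-0.52; edgeR adjusted p = 0.036) and on log2(TPM + 1) (-0.65; limma adjusted p = 0.020). An exon of AC024909.2, on the opposite strand, overlaps an exon of DUSP6 in GENCODE v29, and strand use in counting is not given in the sources used here, so reads of the overlap are uncertain.

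The phosphatases that prefer JNK and p38 showed no called change. DUSP16 (ENSG00000111266, chromosome 12, 12474210 to 12562383, 7 exons) stood at 9.48, 10.2 and 9.32 CPM in DMSO and at 9.06, 11.7 and 9.82 CPM in ST. Its groups overlapped, and the 95% interval of the log2 fold change, -0.27 to 0.43, was the narrowest of the 8 tested genes. DUSP10 (ENSG00000143507, chromosome 1, 221701424 to 221742176, 4 exons) had 42, 54 and 60 counts in DMSO and 48, 49 and 27 in ST, with an interval of -0.74 to 0.62. DUSP8 (ENSG00000184545, chromosome 11, 1554044 to 1571920, 7 exons) was listed at 0 in all 6 libraries, which allows up to 0.030 CPM in DMSO and 0.036 CPM in ST (3 counts over a group, counting error only). The table also lists 65 of 65 replication-dependent histone genes at 0, so a 0 there need not mean that a gene is silent. Whether this extends to DUSP8 was not tested.

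Among the upstream inhibitors, SPRED2 binds RAS pathway proteins at the membrane and limits RAF activation (ENSG00000198369, chromosome 2, 65310851 to 65432637, 6 exons). It stood at 41.5, 65.4 and 44.1 CPM in DMSO and at 29.6, 30.0 and 30.4 CPM in ST. The ST values lay within 1 CPM of each other and below every DMSO value. Means were 50.3 ± 13.1 CPM in DMSO and 30.0 ± 0.44 CPM in ST (SD, n = 3 each), and the log2 fold change was -0.75 with an SE of 0.18 (edgeR adjusted p = 0.012). Without DMSO replicate 2, the highest library, the change was -0.52 and was called (edgeR adjusted p = 6.85e-04). Without ST replicate 1 it was -0.74 and missed the threshold (edgeR adjusted p = 0.052). Of all tested genes, 6640 of 11724 passed without DMSO replicate 2 and 3127 of 11765 without ST replicate 1. On the TPM scale SPRED2 was called too, at 21.4, 21.6 and 22.7 TPM in DMSO and 11.2, 11.1 and 11.2 TPM in ST. On that scale DMSO replicate 2 did not stand above its group. Its listed TPM, however, also summed to the lowest part of the full TPM total, 39.5%, and the bearing of this was not tested. SPRY1 (ENSG00000164056, chromosome 4, 123396795 to 123403760), a Sprouty gene, had a single count in either group (1 and 1), a level with an exact 95% Poisson interval of 2.5e-04 to 0.055 CPM in DMSO and 3.0e-04 to 0.067 CPM in ST, and was not tested.

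**Figure D2:**
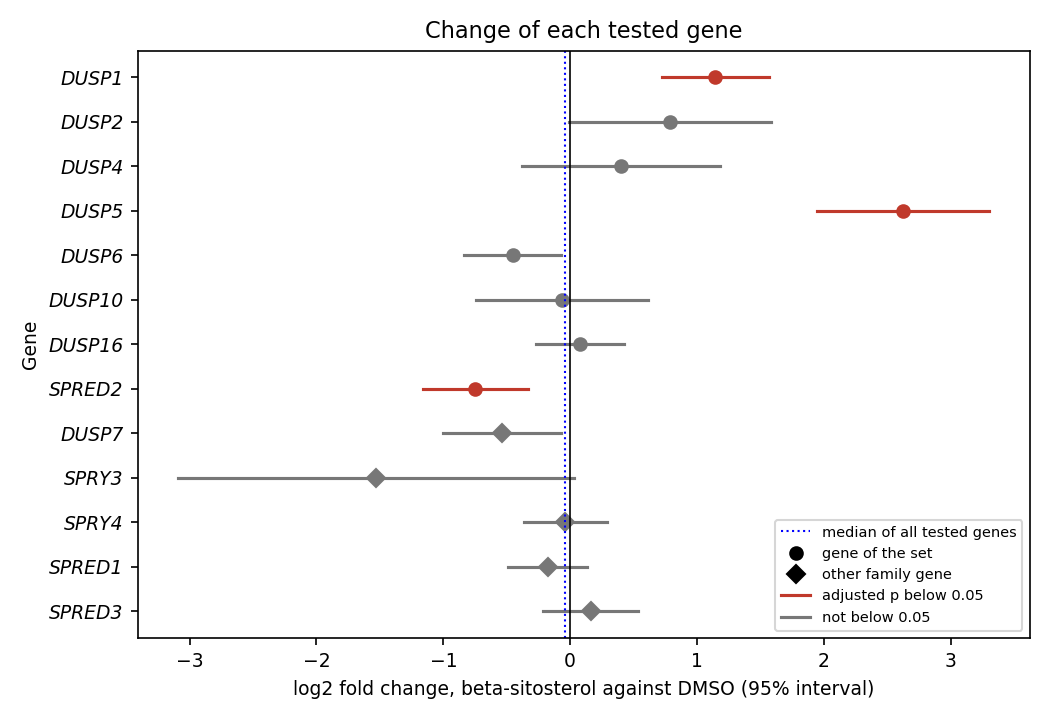
Log2 fold change of each tested gene, beta-sitosterol against DMSO, with its 95% interval; circles are the 8 tested genes of the set, diamonds the 5 other tested family genes, red means an adjusted p below 0.05 and the dotted line is the median of all tested genes. DUSP5 lies farthest to the right at 2.63, and SPRED2 is the only red gene left of 0, at -0.75.

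Replicate spread differed between the groups. On log2 CPM the SD over DMSO libraries was 0.86 for DUSP2, 0.36 for SPRED2, 0.35 for DUSP1 and 0.31 for DUSP6, against a median of 0.27 over all tested genes. In ST it was 0.11, 0.02, 0.02 and 0.04 for the same genes, against a median of 0.09. DUSP5, DUSP10 and DUSP16 were more spread in ST, at 0.38, 0.46 and 0.19, than in DMSO, at 0.15, 0.26 and 0.07. DUSP4 was more spread in DMSO, at 0.54, than in ST, at 0.27. Of these genes DUSP4, DUSP5 and DUSP10 have few counts.

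Levels of different genes were compared per length, in TPM. In ST the order was DUSP1 (53.7 ± 1.70 TPM, SD, n = 3), DUSP2 (18.1 ± 1.52), DUSP6 (13.5 ± 0.24), SPRED2 (11.1 ± 0.02), DUSP16 (3.70 ± 0.48), DUSP5 (3.10 ± 0.78), DUSP10 (0.94 ± 0.29) and DUSP4 (0.52 ± 0.12). The libraries' ranges overlapped only between DUSP16 and DUSP5 and between DUSP10 and DUSP4. Within each ST library, however, DUSP16 was above DUSP5 and DUSP10 above DUSP4. In DMSO, DUSP1 (30.4 ± 13.1 TPM, SD, n = 3), SPRED2 (21.9 ± 0.72) and DUSP6 (21.8 ± 1.12) could not be ordered beyond their spread. The range of DUSP2 (13.7 ± 8.51) overlapped that of DUSP16 (4.24 ± 0.84), but DUSP2 was higher within each library. DUSP5 and DUSP4 (0.62 ± 0.21 and 0.47 ± 0.14 TPM) overlapped as well in that group.

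Shares within a library do not depend on its TPM total. Over the 10 classical MAP kinase phosphatase genes, which add DUSP7 and DUSP9 to the 8 named above, DUSP1 made up 37.9%, 34.4% and 44.6% of the summed TPM in DMSO and 56.6%, 56.1% and 55.7% in ST. DUSP6 made up 28.3%, 41.2% and 22.4% in DMSO and 13.6%, 14.5% and 14.3% in ST. The groups did not overlap for either gene. DUSP5 went from 0.81% ± 0.10 to 3.25% ± 0.86 (SD, n = 3 per group). DUSP2 stood at 20.4%, 8.33% and 21.1% in DMSO and 19.9%, 17.3% and 19.4% in ST, with overlap. The inducible nuclear genes together (DUSP1, DUSP2, DUSP4 and DUSP5) held 57.0% ± 11.6 in DMSO and 78.8% ± 0.79 in ST, the ERK phosphatases of the cytoplasm (DUSP6, DUSP7 and DUSP9) 35.6% ± 10.6 and 16.4% ± 0.33, and the JNK and p38 group (DUSP8, DUSP10 and DUSP16) 7.34% ± 1.02 and 4.85% ± 0.73 (SD, n = 3 per group). Shares sum to 100%, so a lower share need not be a lower level: the CPM of DUSP10 and DUSP16 overlapped between groups.

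**Figure D3:**
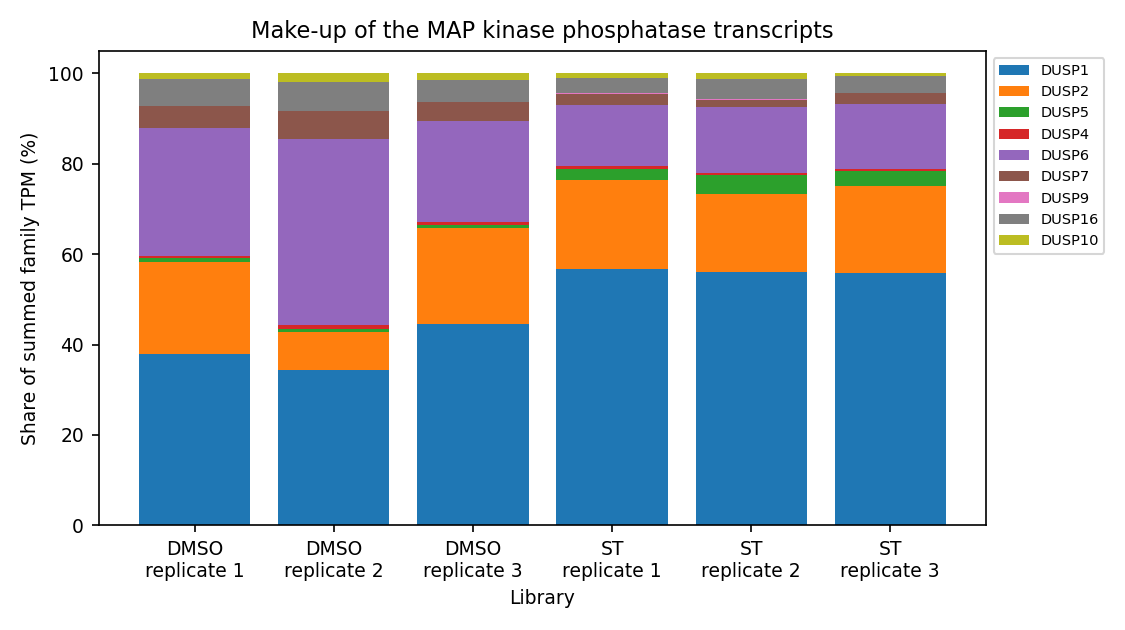
Share of each gene in the summed TPM of the 10 classical MAP kinase phosphatase genes (vertical axis, percent), 1 bar per library; DUSP8, at 0, is not drawn. The DUSP1 share is 34.4% to 44.6% in DMSO and 55.7% to 56.6% in ST, while the DUSP6 share is 22.4% to 41.2% in DMSO and 13.6% to 14.5% in ST.

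Ratios of 2 genes within a library, chosen after the values were seen, do not depend on how libraries were scaled. The DUSP1 to DUSP6 TPM ratio was 1.34, 0.84 and 1.99 in DMSO and 4.18, 3.86 and 3.89 in ST. The groups did not overlap, and the log2 ratio was 1.61 higher in ST. Leaving out 1 library gave 1.28 to 1.91. In TPM all ST libraries lay above DMSO for DUSP1 and below it for DUSP6, so this ratio could not overlap. The two-sided exact permutation p of 0.10, for each of 3 ratios examined, is the smallest that 3 against 3 can give. With ratios chosen after the values were seen, it adds no support. The DUSP5 to DUSP6 ratio was 0.032, 0.018 and 0.033 in DMSO and 0.17, 0.28 and 0.23 in ST. The ratio of SPRED1, the close relative of SPRED2, to SPRED2 was 0.71, 0.36 and 0.53 in DMSO and 0.80, 0.73 and 0.73 in ST, with no overlap. Its log2 difference was 0.55 with all libraries and 0.29 without DMSO replicate 2. SPRED1 alone stood at 23.3 ± 2.98 and 20.7 ± 0.75 CPM (edgeR adjusted p = 0.33).

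Other relatives of the 10 genes were examined as a list of 7, of which 5 were tested and 0 called (edgeR), with a median of -0.17. At an unadjusted p below 0.05 there was 1, DUSP7, an ERK phosphatase of the cytoplasm like DUSP6. Its level was 5.03 ± 0.57 CPM in DMSO and 3.46 ± 0.64 CPM in ST (edgeR adjusted p = 0.064 for a log2 fold change of -0.54). DESeq2 and limma-voom called 0 of them, and limma on the TPM scale called DUSP7. SPRY4 and SPRED3 overlapped between groups, with intervals of -0.36 to 0.29 and -0.21 to 0.54. Summed over a group, SPRY2 counts were 5 in DMSO and 0 in ST, and DUSP9 counts 0 and 5.

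Atypical dual-specificity phosphatases lack the kinase-docking domain of the MAP kinase phosphatases. Of 12 tested, 3 were higher and 2 lower, or 41.7% against 40.8% of all tested genes. The median log2 fold change was 0.18, against -0.04 over all tested genes. DUSP26 stood at 0.88 ± 0.26 CPM in DMSO and 16.2 ± 1.58 CPM in ST, a rise of 4.19 on the log2 scale with an SE of 0.23 (edgeR adjusted p = 5.57e-05), a larger change than that of any of the 8 tested genes of the set. STYXL1, a phosphatase-like protein without activity, went from 40.9 ± 1.33 to 97.0 ± 3.75 CPM, and DUSP15 from 4.63 ± 1.33 to 10.5 ± 0.51 CPM. DUSP3 and DUSP22 fell by 0.55 and 0.46 on the log2 scale, and both calls were lost when any 1 library other than DMSO replicate 2 was left out. The list then had 3 higher and 0 lower without an ST library, and 4 and 0 without DMSO replicate 1 or 3. It had 4 and 1 with RLE factors. Of 7 tested tyrosine and serine/threonine phosphatases that act on MAP kinases, PTPN7, the tyrosine phosphatase of blood cells that binds ERK and p38, fell by 0.66 (165.7 ± 18.9 to 104.7 ± 1.78 CPM; edgeR adjusted p = 0.0033). PPP2CB, a catalytic subunit of PP2A, rose by 0.48, and the median of the list was -0.14. Those called were 28.6% of this list, against 40.8% of all tested genes. Without DMSO replicate 2, 1 gene of this list was higher and 3 lower, and without ST replicate 1 or 2, 0 were higher and 1 was lower.

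The kinase genes of these pathways changed in either direction. Of 10 tested MAP kinase genes, 2 were higher and 3 lower, with a median of -0.01, and 3 higher and 2 lower with RLE factors. MAPK3 (ERK1) went from 19.4 ± 6.18 to 40.7 ± 2.12 CPM and MAPK12 (p38 gamma) from 84.4 ± 22.7 to 124.2 ± 6.33 CPM. MAPK7 (ERK5) went from 28.9 ± 5.41 to 11.9 ± 0.29 CPM and MAPK13 (p38 delta) from 2.65 ± 0.24 to 1.51 ± 0.29 CPM (edgeR adjusted p = 6.54e-04 and 0.022). The count of this list moved from 5 to 8 without DMSO replicate 2, to 2 without ST replicate 1, and to 3 without DMSO replicate 1, ST replicate 2 or ST replicate 3. Of 18 tested MAP2K and MAP3K genes, which activate the MAP kinases in steps, 10 were lower and 1 higher. The median log2 fold change was -0.39, against -0.04 over all tested genes. Those called were 61.1% of the list, against 40.8% of all tested genes (21.8% lower and 19.0% higher). MAP2K3, which activates p38, had a log2 fold change of -1.03, and MAP3K3 and MAP3K11 of -0.77 and -0.93 (edgeR adjusted p = 4.77e-04, 0.0025 and 0.0029). MAP3K8, which activates the ERK branch downstream of inflammatory receptors, rose from 1.22 ± 0.13 to 2.73 ± 0.79 CPM. Without ST replicate 1, 2 or 3 the lower genes of this list numbered 5, 6 and 6.

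Among 18 tested RAS input genes 3 rose and 5 fell, or 44.4% against 40.8% of all tested genes, at a median of -0.37. On both TPM scales 2 were higher and 2 lower. RRAS, a RAS-like GTPase, went from 2.77 ± 0.67 to 10.3 ± 0.62 CPM, RASGRP3, an exchange factor of B cells that loads RAS with GTP, from 0.42 ± 0.23 to 3.62 ± 0.38 CPM, and RRAS2 from 11.1 ± 0.64 to 18.5 ± 0.91 CPM. The adaptor genes GAB2, GAB1 and SHC1 had log2 fold changes of -1.26, -1.16 and -0.59 (edgeR adjusted p = 7.73e-04, 0.0064 and 0.0076). Other brakes on RAS to ERK signalling numbered 3 higher and 3 lower of 11, or 54.5% against 40.8% of all tested genes, at a median of -0.23. For these, 1 was higher and 4 lower on both TPM scales. Of the RAS GTPase-activating proteins, which return RAS to its inactive form, DAB2IP and RASA1 fell by 2.37 and 0.88 on the log2 scale, while RASA3 and RASAL3 rose by 0.68 and 0.75. PEA15, which holds ERK in the cytoplasm, rose by 0.79.

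Of 17 tested genes listed as outputs of ERK, 8 rose and 3 fell, with a median of 0.25. Among them are ELK1, ELK3, ELK4 and SRF, transcription factor genes whose mRNA was not shown here to follow ERK. Those called were 64.7% of the list, against 40.8% of all tested genes (19.0% higher and 21.8% lower). FOS, IER3 and FOSB had log2 fold changes of 4.93, 3.97 and 3.59, and MYC, ELK1 and SRF of -1.52, -0.88 and -0.85. ETV4 and ETV5, transcription factor genes often read beside DUSP6 as ERK targets, had intervals of -0.23 to 0.37 and -0.68 to 0.0045 (edgeR adjusted p = 0.69 and 0.10), and were named after their values were seen. Against 40.8% of all tested genes, 53.3% of the 15 tested genes listed as JNK and p38 outputs were called. Of these 7 rose, at a list median of 0.43, and 1 fell, by 0.68: MAPKAPK2, a kinase activated by p38. That balance was not kept on the TPM scale, where 4 were higher and 4 lower on log2(TPM + 1), and 4 and 3 on log2(TPM + 0.1). JUN, JUNB and GADD45B, the last an adaptor of MAP kinase kinase kinases, had log2 fold changes of 5.33, 1.998 and 2.17. These lists were written with earlier results of the same libraries known. Whether the mRNA of each listed gene follows its kinase was not tested.

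**Figure D4:**
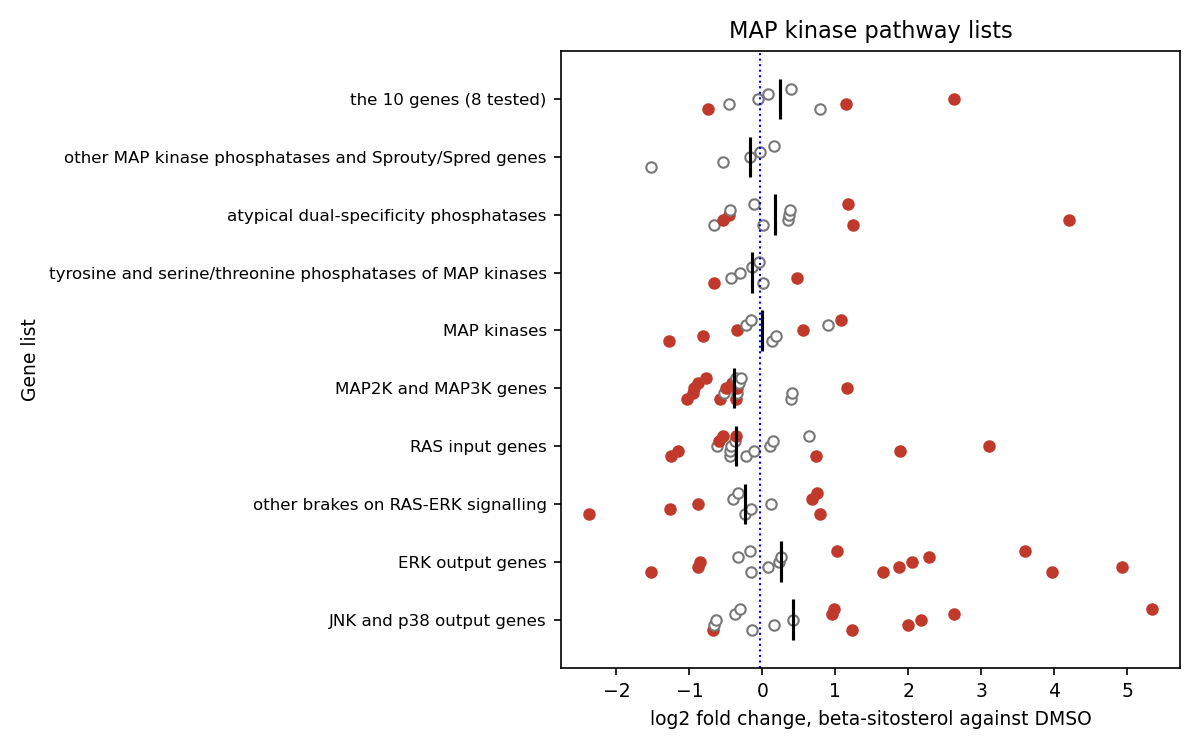
Log2 fold change of every tested gene in the 10 lists (rows), beta-sitosterol against DMSO; filled red points have an adjusted p below 0.05, black bars are list medians and the dotted line the median of all tested genes, -0.04. The MAP2K and MAP3K row lies mostly left of that line, with 10 genes called lower and 1 higher, and the output rows reach farthest right.

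The genes whose profile over the 6 libraries was nearest to that of a changed member were found by the root mean square difference of log2 CPM, each gene centred on its own mean, among genes of at least 5 CPM on average. For DUSP1 the nearest was DUSP15 (0.05 log2 units), followed by CLTB and DALRD3 (0.07 each). For SPRED2 they included BUD13 and ZNF827 (0.03 each). For DUSP5 they were EMP3, OVGP1 and PLEK at 0.19, 0.21 and 0.21, a looser match.

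A feature of many short-lived early mRNAs is the AU-rich element of the 3′ untranslated region. The letters TATTTAT occurred there in 6 of the 10 genes (1 principal transcript a gene, GENCODE v29), 3 times in DUSP1 and SPRY1, 4 times in DUSP4, 2 times in DUSP8 and once in DUSP2 and SPRED2, against 28.8% of 18935 protein-coding genes. Among 10731 tested protein-coding genes the share with TATTTAT was 31.7%, and of the 6 genes DUSP8 and SPRY1 were not tested. DUSP1 and DUSP2 had 5.95 and 4.57 ATTTA per kb, against medians of 1.41 in all protein-coding genes and 1.57 in the tested ones. DUSP5, the gene with the largest change, had 0 of either in 1118 bases. DUSP6 had 1 ATTTA in 2022 bases. The regions differed in length, from 657 bases in DUSP2 to 3962 in DUSP4, which a count of matches follows in part.

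**Figure D5:**
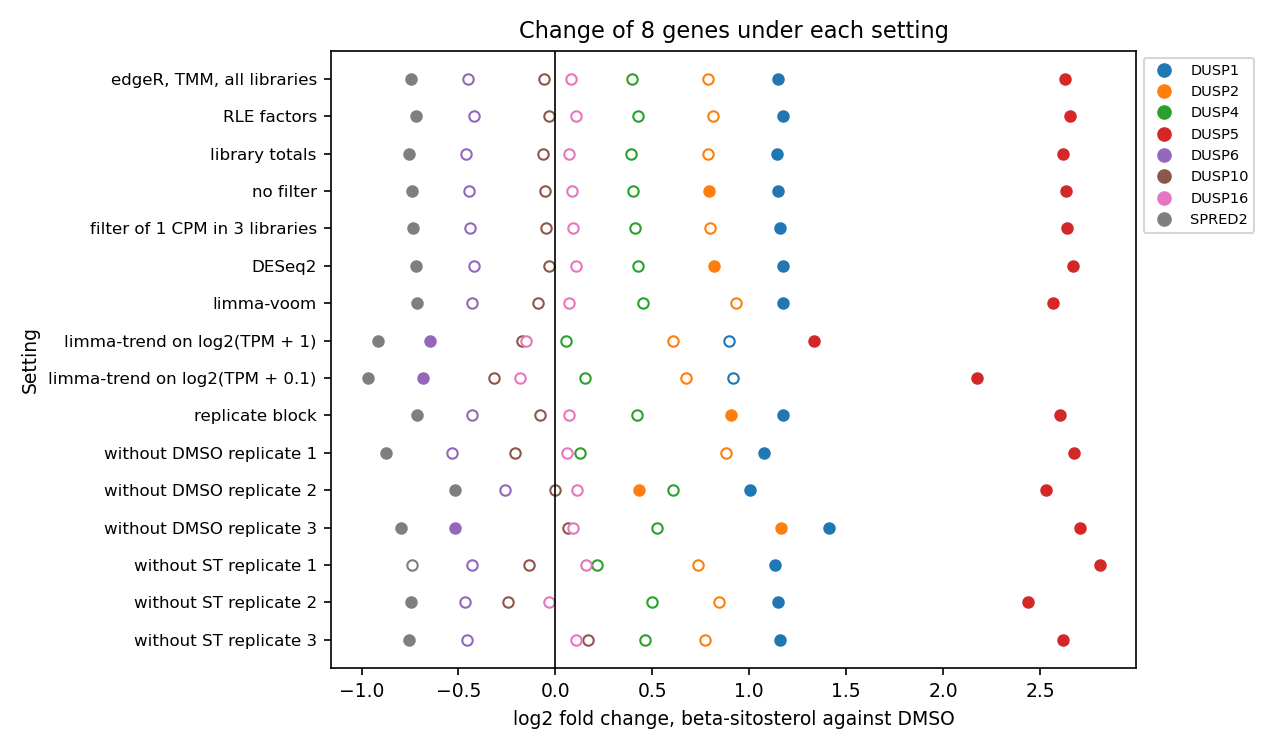
Log2 fold change of the 8 tested genes (colours) under the reported test and 15 alternatives (rows); a filled point has an adjusted p below 0.05. DUSP5 is filled in every row, DUSP1 in all but the TPM rows, SPRED2 in all but the row without ST replicate 1, and DUSP2 and DUSP6 in some rows only.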

How the data were processed

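Libraries were 3 DMSO and 3 beta-sitosterol samples of SU-DHL-8, mapped by title. The authors deposited whole-number read counts per gene, not normalized, and TPM values scaled by gene length and library. Per the submitters' processing notes, StringTie 2.2.1, featureCounts 2.0.1, fastp 0.23.2 and STAR 2.7.10 were used with GRCh38. The sources used here do not give annotation, strand or multi-mapping settings. After 61 repeated symbols were dropped, counts were tested in R 4.3.3 with edgeR 4.0.16 (quasi-likelihood, TMM, filterByExpr, treatment only, two-sided, Benjamini-Hochberg over 11525 genes, threshold 0.05). Standard errors were derived from F (size of the log2 change divided by its root), and CPM are TMM-scaled. The fit was checked on simulated counts. TPM were tested with limma 3.58.1 on log2(TPM + 1) and log2(TPM + 0.1). Alternatives were RLE factors, library totals, DESeq2 1.42.0, no filter, limma-voom, a minimum of 1 CPM in 3 libraries, a replicate block and each library left out.

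Named were all 10 genes, up to 3 called genes per direction of each list by smallest p (else the 1 smallest), and the 3 nearest profiles of the 3 members of smallest p; some genes that this rule takes are not reported here. Members and lists were chosen with earlier results of these data known. SPRED1, SPRY4, SPRED3, SPRY2, DUSP9, ETV4, ETV5 and the cell type markers were named outside that rule. Positions are from GENCODE v29 (GRCh38) by identifier.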

Additional observations from a re-analysis of the deposited data

How the results depend on the processing

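Of the alternatives to each result, 282 values kept direction and side of the threshold or stayed within 1.5 times or 1 SD, and 53 did not. Genes called went from 4697 (2185 higher, 2512 lower) to 2939 (713 and 2226) on log2(TPM + 1) and 2935 (691 and 2244) on log2(TPM + 0.1), where the median of all genes was -0.19 and -0.26, and to between 3094 and 6640 without 1 library. Members called were 2 to 5 without 1 library, 2 being DUSP1 and DUSP5 without ST replicate 1. DUSP1 had 0.89 and 0.92 on the TPM scales with pseudocounts 1 and 0.1 (limma adjusted p = 0.073 and 0.074) and 1.004 to 1.41 without 1 library. DUSP2 passed with no filter (0.79), DESeq2 (0.82) and the replicate block (0.91, edgeR adjusted p = 0.029), and was 0.43 to 1.16 without 1 library. DUSP6 passed on the TPM scales (-0.65 and -0.68) and was -0.53 to -0.26 without 1 library. SPRED2 was -0.87 to -0.52. DUSP16 turned to -0.15 and -0.18 on the TPM scales and was -0.03 (-0.033, without ST replicate 2) to 0.16 without 1 library. DUSP10 was -0.25 to 0.17, with 0.06 without DMSO replicate 3 and 0.17 without ST replicate 3. The cause was not tested.

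Numbers of called genes per list under log2(TPM + 1) and log2(TPM + 0.1) were 1 and 1 for other family genes (1 also with no filter, SPRY3), 3 and 2 for atypical phosphatases, 1 and 1 for other MAP kinase phosphatases, 3 and 3 for MAP kinases, and 4 and 4 for RAS input genes. Without 1 library they were 3 to 7 for atypical phosphatases, 1 to 4 for other phosphatases of MAP kinases, 2 to 8 for MAP kinases and 6 to 14 for MAP2K and MAP3K genes. As shares of counts, not scaled for length, DUSP1 held 16.3% in DMSO and 31.7% in ST, DUSP6 52.5% and 33.9%, DUSP2 8.71% and 13.0%, and DUSP5 0.56% in DMSO.

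Same-numbered libraries deviated together only weakly (correlations of 0.04, 0.10 and 0.15), and each correlated best with its own number, as a hint from the data. The replicate block gave 4743 called genes and 4 called members, DUSP2 being the added one, and changed no other member's call. DUSP4, DUSP5 and DUSP10 had the fewest counts of the tested members, 12 to 90 a library.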
